A study of Mus musculus with 2 samples.

Results

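The Notch pathway genes described here are 36 genes that carry a signal from one cell to its neighbour, and they were taken by name: every non-control probe whose gene name in the scanner files was on a list of 4 receptors, 5 ligands, 3 Fringe glycosyltransferases, 6 proteases or protease subunits, 4 genes of the nuclear complex, 7 HES and HEY factors, 3 genes for Numb proteins and Nrarp, and 4 Deltex genes. They are 36 of the 22128 named genes on the arrays and had 50 probes. ALDH-positive and ALDH-negative 4T1 cells had their mRNA measured on 1 array each, to find what differs in cells with high aldehyde dehydrogenase (ALDH) activity. 4T1 is a mammary carcinoma line of the BALB/C mouse, grown here in culture without treatment and sorted with ALDEFLUOR, a fluorescent substrate of ALDH. The labels call the ALDH-positive population cancer stem cells and the ALDH-negative population anti cancer stem cells, and they name no further allele or agent in either. Each array stands for 1 sorted population, so no value below has a replicate check, and in such bulk RNA fewer cells that express a gene and less RNA of it per cell cannot be told apart.

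A Notch receptor is a membrane protein that binds a Delta or Jagged ligand on the next cell. Binding lets an ADAM protease and then γ-secretase cut the receptor, and the freed intracellular domain enters the nucleus, where it joins RBPJ and a Mastermind protein to switch on genes such as those of the HES and HEY repressors. In the mammary gland the pathway is known for the commitment of cells to the luminal lineage, and in breast carcinomas it is studied in cells with stem-like properties.

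With the Z-score used here, which the study's methods do not define, no Notch pathway gene passed the limits they set for a difference between the populations. Under some other settings, given below, *Notch3*, *Lfng* or both were called higher. A gene is called higher or lower in ALDH-positive cells only if its Z-score reached 2.0 and its ratio 1.5, or if its Z-score was at most -2.0 and its ratio at most 0.75. The ratio is the quantile-normalized signal of ALDH-positive over ALDH-negative cells, and the Z-score used here sets each log2 ratio against its neighbours, the nearest 250 brighter and 250 dimmer probes, as its distance from their mean divided by their SD. Of the 36 genes, 31 were measured, that is, well above background on at least 1 array by the scanner software's own flag, 30 of them on both arrays. Of these 31, 0 were higher and 0 were lower, and over all 13989 measured genes 1.32% were higher and 2.03% were lower. Restricted to genes that both arrays measured, the corresponding shares were 0.804% and 1.45%. Where a pair of signals is given below, that of ALDH-negative cells comes first.

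The log2 ratios of the measured Notch pathway genes lay around 0. Their median was 0.07 against 0.05 over all measured genes. Of the 31, 20 (64.5%) were above 0 and 11 below, where 60.6% of all measured genes were above 0. Within 0.25 of 0 lay 23 of the 31 (74.2%), against 71.3% of all measured genes. The error of a log2 ratio, combined from the errors that the scanner software gives each signal, covers the reading of the arrays and not the spread between cultures or sorts. By that error, 20 of the 31 were within 1 error of 0. The other 11 were *Dll1*, *Dtx3*, *Hes7*, *Jag1*, *Lfng*, *Maml2*, *Maml3*, *Mfng*, *Notch1*, *Notch3* and *Numbl*, a share of 35.5% against 33.8% of all measured genes. More than 2 errors from 0 were 5 genes, with *Dll1*, *Lfng*, *Maml2* and *Notch3* above 0 and *Notch1* below, or 16.1% against 10.5%. The error of *Dll1* is not like the others. It combines 10 spots per array as independent although they read the same RNA, and *Lfng*, *Maml2*, *Notch3* and *Notch1* had 1 spot per array.

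**Figure D1:**
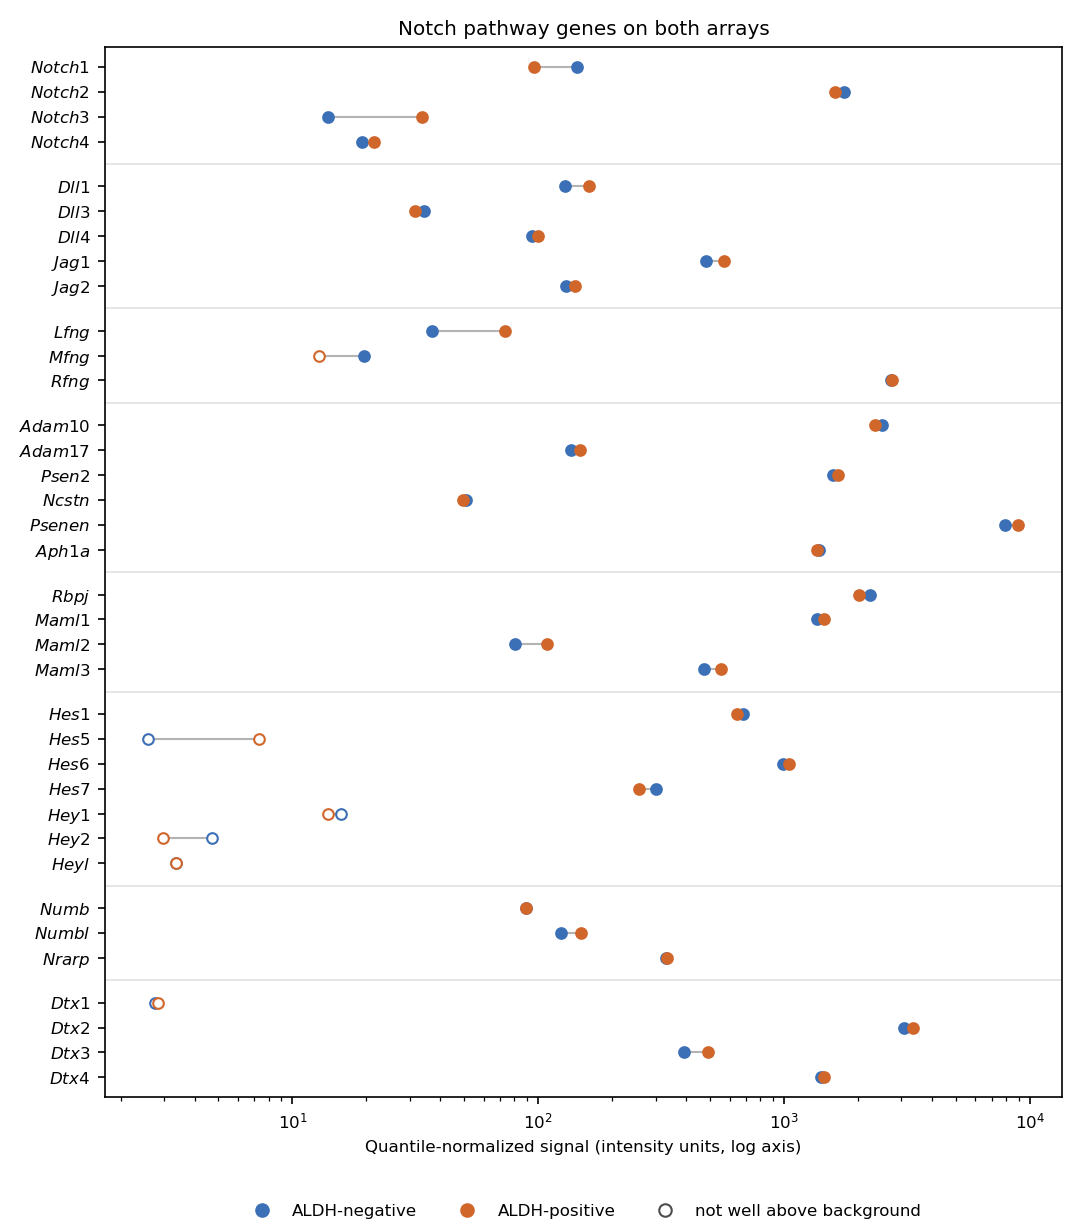
Quantile-normalized signal of the 36 Notch pathway genes on the array of ALDH-negative and the array of ALDH-positive cells, in intensity units on a log axis, with 1 probe per gene and a grey line joining its 2 values. Open circles are not well above background. *Notch3* went from 14.0 to 33.6 and *Lfng* from 36.9 to 73.5, *Notch1* from 144 to 96.5, and most other pairs nearly coincide. Positions along the axis compare the 2 arrays for a gene and not one gene with another.

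The receptors were measured on both arrays for all 4 genes, and their log2 ratios had both signs. *Notch1*, a receptor known from T-cell leukaemia, had a signal of 144 intensity units in ALDH-negative cells against 96.5 in the ALDH-positive population. This is a log2 ratio of -0.57 ± 0.21 (scanner error), a ratio of 0.672, with a Z-score of -1.62. A ratio as low or lower was seen in 4.04% of all measured genes, and before normalization, when the array of ALDH-positive cells was the brighter one for most genes, *Notch1* still read 124 against 111. *Notch1* and *Mfng* were the 2 measured Notch pathway genes with a log2 ratio below 0 before normalization, where the median over the 31 was 0.53. The measured probe of *Notch1* (NM_008714) lies on the minus strand at chr2:26319440-26319499 of assembly NCBI37, the build of the array files. It is shown here, 5′ to 3′ as are the probes and windows below, because the lowest receptor ratio rests on these 60 bases alone.
*Notch1* probe: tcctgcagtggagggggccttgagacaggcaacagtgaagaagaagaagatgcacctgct
The array files give no exon or UTR for a probe, and no annotation of NCBI37 was used here. A further *Notch1* probe was not well above background on either array.

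*Notch3*, a receptor best known from vascular smooth muscle, had the highest log2 ratio of all measured Notch pathway genes. Its signal was 14.0 against 33.6 in ALDH-positive cells, so it lay just above the lowest signal called well above background on the first array, 13.1. The log2 ratio was 1.26 ± 0.36, a ratio of 2.40, and 1.49% of all measured genes had a ratio as high or higher. The log2 ratios of its neighbours had an SD of 0.93, and its Z-score was 1.35. The value rests on 1 probe (NM_008716, chr17:32257848-32257907 of NCBI37, minus strand) and 1 spot per array.

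*Notch2* read 1754 and 1605, a log2 ratio of -0.13 ± 0.20, within 1 error of 0. A further *Notch2* probe, at chr3:97951233-97951292 on the plus strand, read 22.3 and 32.5, a log2 ratio of 0.55 ± 0.34, and lies in the end region of the array, the last eighth of its rows or columns. The probes of *Notch2* thus had opposite signs and differed by 0.67 with an error of the difference of 0.40. *Notch4*, known from endothelium, read 19.1 and 21.5, a log2 ratio of 0.17 ± 0.38. Among endothelial markers, *Cdh5*, *Tek*, *Tie1*, *Vwf* and *Emcn* were not well above background on either array, *Pecam1* read 27.0 and 31.3, and *Kdr* read 7292 and 5394 and was lower. Both populations were sorted from a cultured line, and which cells gave the *Notch4* signal was not tested. The further probe of *Notch2* is shown because its sign was opposite to that of the probe that stands for the gene.
*Notch2* further probe: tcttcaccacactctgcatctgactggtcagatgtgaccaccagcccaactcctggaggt

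**Figure D2:**
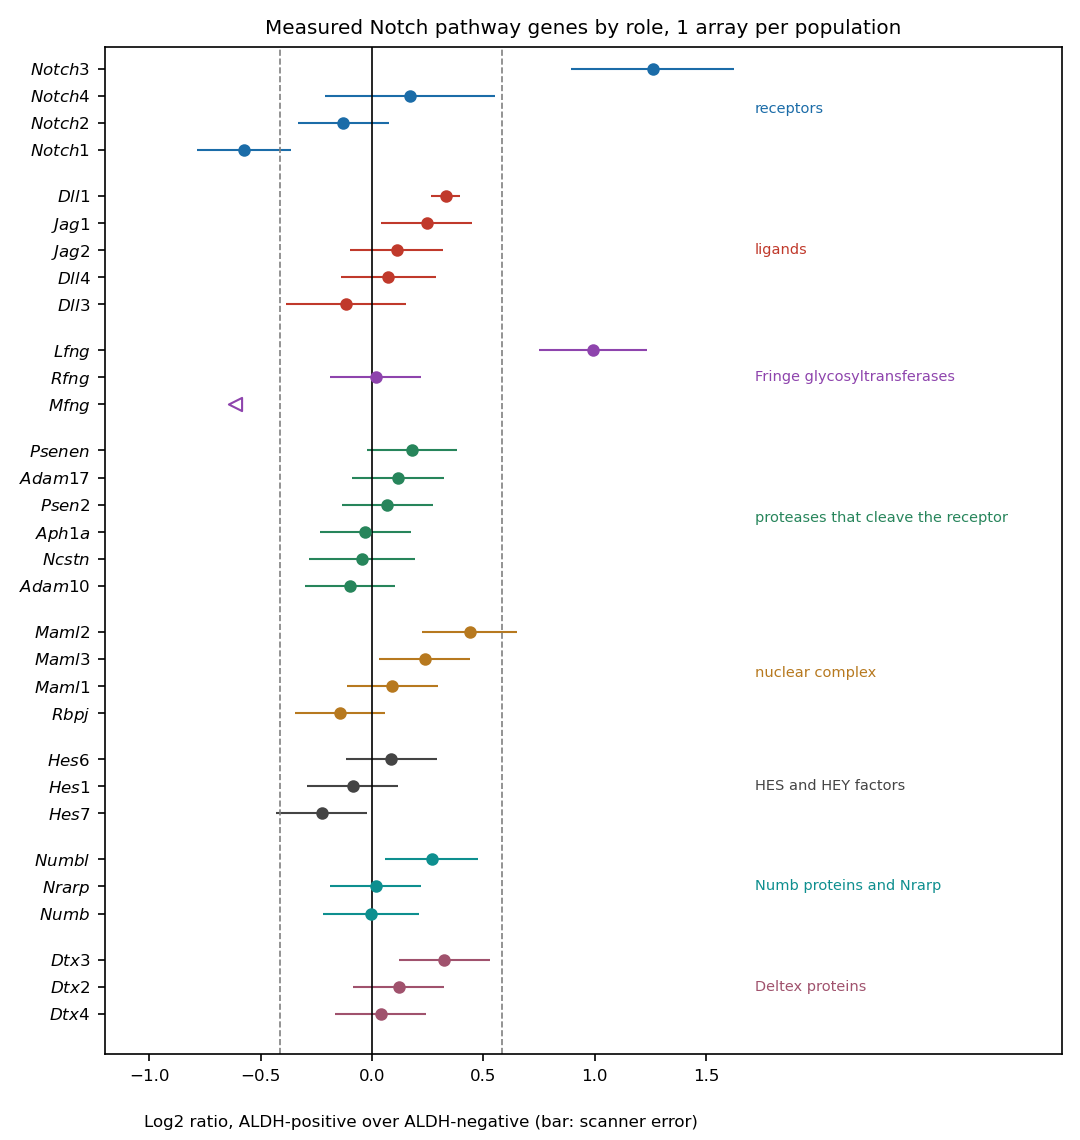
Log2 ratio of ALDH-positive over ALDH-negative cells for the 31 measured Notch pathway genes, grouped by role, with bars of 1 scanner error and 1 array per population. Dashed lines mark the ratio limits of 1.5 and 0.75, and the open triangle is *Mfng*, which was well above background on 1 array only. *Notch3* and *Lfng* lie beyond the upper limit and *Notch1* and *Mfng* beyond the lower limit. None of the 4 passed the limit of the Z-score used here, taken against neighbouring probes.

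Of the ligands, all 5 were measured on both arrays, and 4 (80%) had a log2 ratio above 0, against 60.6% of all measured genes. The median of the ligands was 0.11. *Dll1*, which activates receptors on the neighbouring cell, had the smallest scanner error of them, with a probe printed 10 times on each array. Its spots lay between 113 and 139, with a median of 130, on the array of ALDH-negative cells and between 147 and 170, with a median of 163, on the other. The spots of each array read 1 RNA sample, so they are not replicates of a population. The log2 ratio of *Dll1* was 0.33 ± 0.066, a ratio of 1.26 that is under the limit of 1.5. The SD of the spots was 0.090 on the first array and 0.065 on the second, on the log2 scale.

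*Jag1*, a ligand much studied in breast carcinoma, read 480 in ALDH-negative cells against 569, a log2 ratio of 0.25 ± 0.20. *Jag2* read 130 and 141, a log2 ratio of 0.11 ± 0.21. *Dll4*, a ligand of sprouting vessels, read 94.4 and 99.4, a log2 ratio of 0.07 ± 0.21. The differences of *Jag2* and *Dll4* were smaller than their scanner errors. *Dll3*, which does not activate receptors on a neighbouring cell, was the one ligand below 0, at 34.2 and 31.5 with a log2 ratio of -0.12 ± 0.27.

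The Fringe enzymes, which lengthen sugars on the receptors and so change which ligands they answer to, differed among themselves. *Lfng* read 36.9 in ALDH-negative cells against 73.5 on the other array. The log2 ratio of *Lfng* was 0.99 ± 0.24, a ratio of 1.99 and 4.10 times its scanner error, with a Z-score of 1.73 where the SD of its neighbours was 0.55. A ratio as high or higher was seen in 2.16% of all measured genes. Its probe (NM_008494) lies at chr5:141091224-141091283 of NCBI37 on the plus strand, away from the last rows and columns.

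*Mfng* was well above background in ALDH-negative cells only, at 19.6 against 12.8, a signal 1.53-fold lower with this background correction. The 12.8 was above 12.7, the lowest signal called well above background on that array. The fold is thus the measured one and not a lower limit. The measured log2 ratio was -0.62 ± 0.46 with a Z-score of -0.61, and it was -0.15 with normexp and -0.10 without background correction. Its other probe, at 16.3 and 8.69, was not well above background on either array. *Rfng* read 2726 and 2759, a log2 ratio of 0.02 ± 0.20, and its further probe gave -0.09. With this background correction, the ratio thus lay above the upper limit for *Lfng* and below the lower limit for *Mfng*. The log2 ratio of *Rfng* was close to 0, and each value came from 1 array per population.

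*Lfng* and *Notch3* were the 2 Notch pathway genes with a ratio of 1.5 or more (6.45% of the 31, against 5.06% of all measured genes), and *Mfng* and *Notch1* the 2 with a ratio of 0.75 or less (6.45% against 6.14%). With normexp and without background correction, none of them reached a ratio limit. Their log2 ratios were then 0.33 and 0.33 for *Notch3*, 0.45 and 0.44 for *Lfng*, -0.37 and -0.38 for *Notch1*, and -0.15 and -0.10 for *Mfng*. Normexp adds an offset of 50 to both signals, and no correction leaves the background in them. Either shrinks log2 ratios by itself, most for dim genes, so these values are not a separate check on the genes. With the background correction used here, whether *Lfng* and *Notch3* were called higher depended on the Z-score and the probes it was taken over. When neighbours were drawn only from probes that both arrays measured, *Notch3* had a Z-score of 2.73 and *Lfng* one of 2.16, and both were called higher. The Z-score of *Lfng* was 2.34 without the end region of the array, and that of *Notch3* was 2.02 when taken over all probes. Over all measured genes, 1.07%, 1.14% and 1.5% were higher under these settings, and 1.59%, 1.84% and 1.32% were lower, where 0 Notch pathway genes were.

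**Figure D3:**
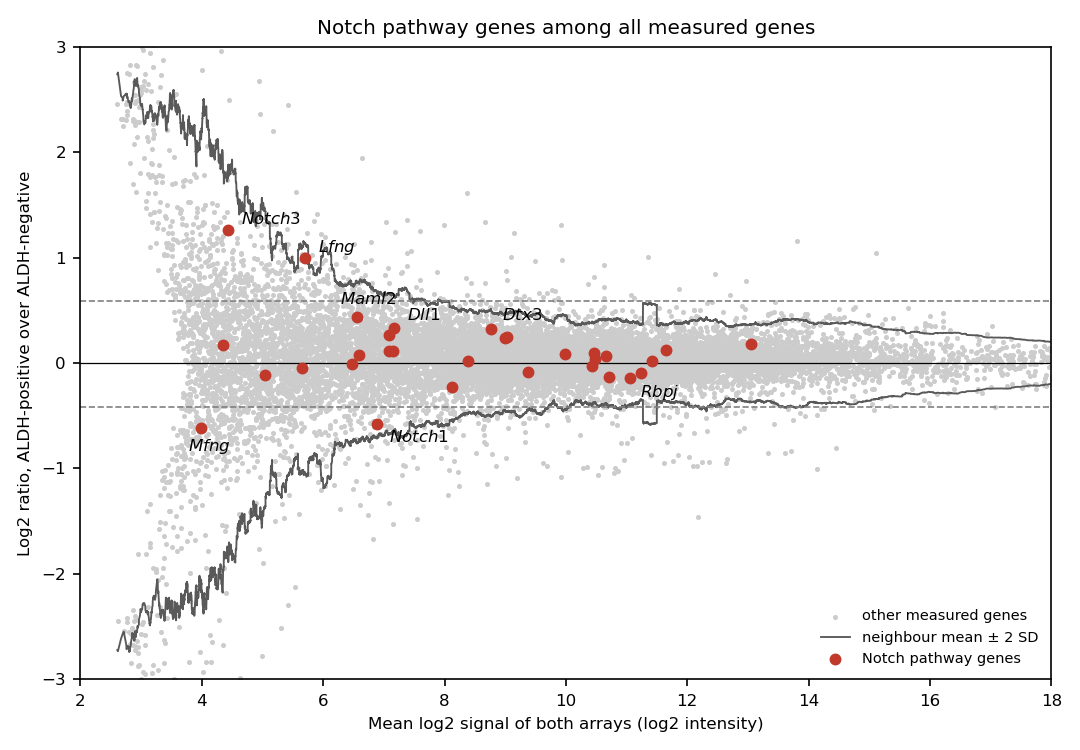
Log2 ratio of ALDH-positive over ALDH-negative cells against the mean log2 signal of both arrays for the measured genes, with the Notch pathway genes in red, the mean ± 2 SD of the neighbouring probes as lines and the ratio limits dashed. A further 140 genes lie outside the axes. The band is widest at low signal, where *Notch3* and *Mfng* lie, and no red point is both beyond it and beyond a ratio limit.

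For the proteases that free the receptor's intracellular domain, the probe that stands for the gene was within 1 scanner error of 0 in all 6 genes. Their log2 ratios ran from -0.10 for *Adam10* to 0.18 for *Psenen*. *Adam10*, which makes the first cut after the ligand binds, read 2510 and 2343. *Adam17*, a related protease, read 136 and 148, a log2 ratio of 0.12 ± 0.21, and its further probe gave 0.20. Of the γ-secretase genes, *Psen2*, a catalytic subunit, read 1583 and 1660, a log2 ratio of 0.07. *Ncstn*, the subunit that receives the substrate, read 50.8 and 49.2, a log2 ratio of -0.05 ± 0.24. The small subunit gene *Psenen* read 7936 and 8987, a log2 ratio of 0.18 ± 0.20, and its further probe gave 0.15. *Aph1a*, the scaffold subunit, read 1391 and 1363, a log2 ratio of -0.03 ± 0.20. A further *Aph1a* probe read 237 and 187, a log2 ratio of -0.34 ± 0.21 with a Z-score of -1.25, and differed from the first by 0.31 with an error of the difference of 0.29.

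In the nuclear complex, *Rbpj*, the DNA-binding factor on which the receptor acts, lay below 0 and the Mastermind coactivators lay above. The *Rbpj* probe that stands for the gene read 2238 in ALDH-negative cells against 2026, a log2 ratio of -0.14 ± 0.20. The other read 425 and 308, a log2 ratio of -0.47 with a Z-score of -1.95, just inside the limit of -2.0. The probes of *Rbpj* had the same sign and differed by 0.32, with an error of the difference of 0.29. The first probe lies in the end region of the array, where 2.85% of measured genes were higher and 3.27% lower, against 0.835% and 1.64% elsewhere. The probes of *Psen2*, *Maml1* and *Nrarp* lie there too. The other probe, at chr5:54044777-54044836 on the plus strand, lies outside it, and is shown because it is the probe nearest to the lower limit in this pathway.
*Rbpj* other probe: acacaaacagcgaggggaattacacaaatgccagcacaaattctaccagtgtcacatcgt

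*Maml2*, the Mastermind gene known from a fusion in salivary gland carcinoma, read 80.4 and 109, a log2 ratio of 0.44 ± 0.21 and a Z-score of 1.13. *Maml3* read 471 and 555, a log2 ratio of 0.24 ± 0.20, while a further *Maml3* probe gave -0.16. *Maml1* read 1364 and 1453, a log2 ratio of 0.09. The median of the nuclear complex was 0.16, and it was 0.06 when the median over a gene's probes stood for the gene.

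The HES and HEY factors, several of which are repressors that the pathway switches on, were the role group least well measured. *Hes5*, *Hey1*, *Hey2* and *Heyl* were not well above background on either array. *Hes5* read 2.60 and 7.30, *Hey1* 15.7 and 13.9, *Hey2* 4.72 and 2.96 and *Heyl* 3.36 and 3.37, so no fold is given for them. *Hes1*, the best known target of the pathway, read 682 in ALDH-negative cells against 642, a log2 ratio of -0.09 ± 0.20. *Hes7*, which oscillates in the segmenting embryo, read 301 and 257, a log2 ratio of -0.23 ± 0.21. *Hes6*, a factor that counters HES1, read 988 and 1050, a log2 ratio of 0.09 ± 0.20. The 3 measured genes had a median of -0.09, which stayed below 0 with every normalization and background correction tried, and none was more than 2 errors from 0.

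Of the genes that hold the pathway back inside the cell, *Numb*, whose protein sends receptors for breakdown, read 89.6 and 89.3, a log2 ratio of -0.0044 ± 0.22. *Nrarp*, a target gene whose protein acts on the nuclear complex, read 331 and 335, a log2 ratio of 0.02. *Numbl*, the relative of *Numb*, read 123 and 149, a log2 ratio of 0.27 ± 0.21. Thus *Numbl* alone of the 3 was more than 1 error from 0.

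The Deltex genes encode ubiquitin ligases, several of which bind the receptor. *Dtx3* read 390 in ALDH-negative cells against 489, a log2 ratio of 0.33 ± 0.20 and a Z-score of 1.32. *Dtx2* read 3075 and 3342 and *Dtx4* read 1415 and 1454, with log2 ratios of 0.12 and 0.04. *Dtx1*, itself a target of the pathway in lymphocytes, read 2.77 and 2.84 and was not well above background on either array. All 3 measured Deltex genes were above 0, as were 60.6% of all measured genes.

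**Figure D4:**
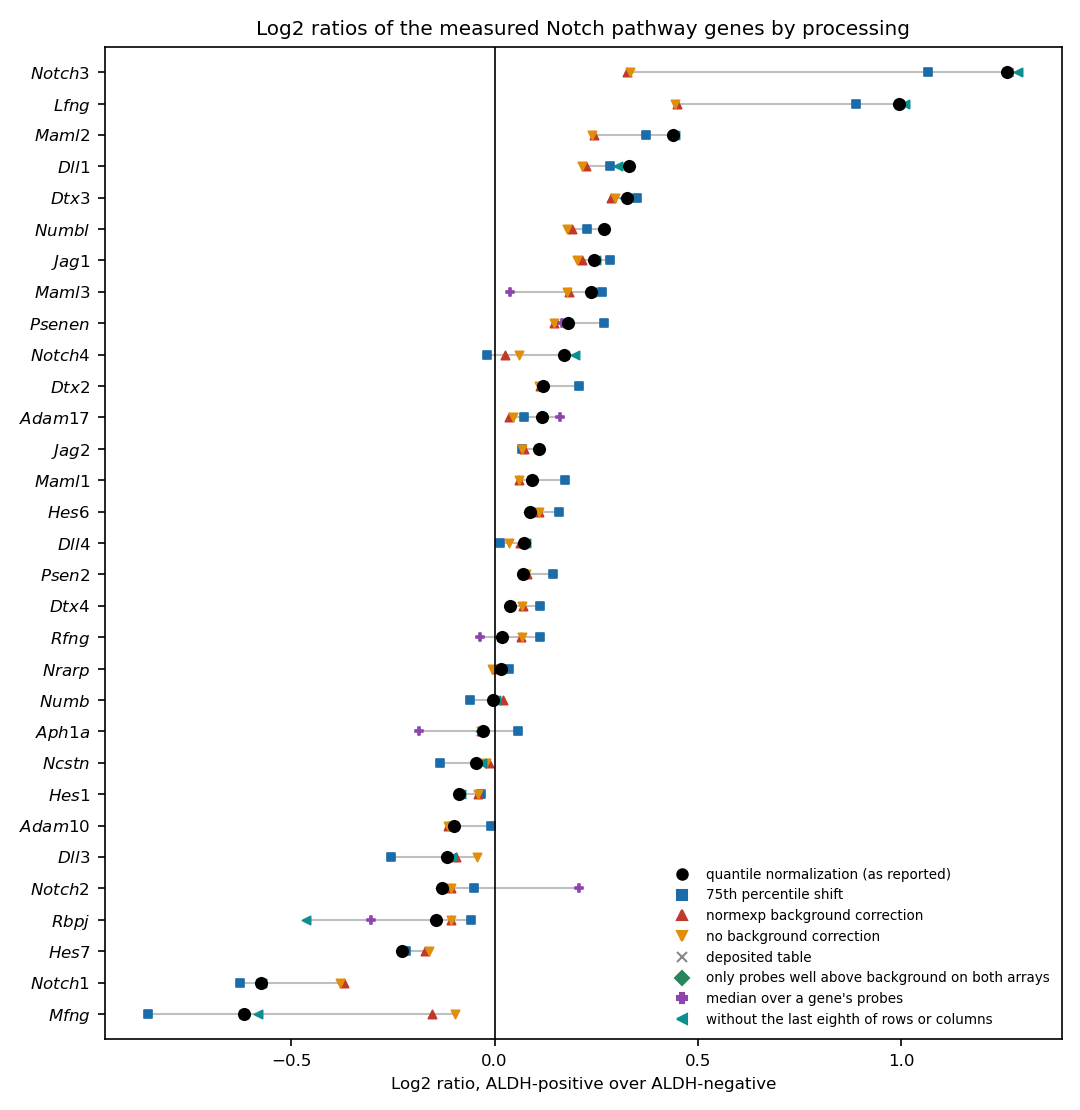
Log2 ratio of each measured Notch pathway gene under quantile normalization and up to 7 alternatives, with a grey line from the lowest to the highest value. *Notch3* ran from 0.33 to 1.29 and *Lfng* from 0.44 to 1.01, *Notch1* from -0.63 to -0.37, and 6 genes crossed 0 under 1 or more settings.

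The values were recomputed with 7 alternatives to the normalization, background correction, probe choice and array area. Over these and the main setting, 8 in all and 7 for *Maml1*, *Mfng*, *Nrarp* and *Psen2*, 17 of the 31 genes stayed above 0 and 8 stayed below, among them *Notch1*, *Mfng*, *Rbpj*, *Hes1* and *Hes7*. The 6 whose sign changed were *Aph1a*, *Notch2*, *Notch4*, *Nrarp*, *Numb* and *Rfng*. Several alternatives could hardly change a sign. The deposited table holds nearly the same log2 ratios, and the median over a gene's probes changes only genes with several measured probes. Keeping only probes well above background on both arrays dropped *Mfng* and left the other log2 ratios as they were. *Notch3* was as low as 0.33 with normexp background correction, where its log2 ratio of 1.26 moved most. Normexp was run with an offset of 50, an amount added to the signals of both arrays. Before normalization *Notch3* read 13.1 and 37.7, both less than that offset. Without background correction, a median background of 56 and 57 intensity units stayed in the signals. Adding a similar amount to both signals of a dim gene shrinks its log2 ratio by itself. Whether anything else lowered the ratio of *Notch3* was not tested.

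Of 13 genes with more than 1 probe, 7 had more than 1 measured probe. The signs of these probes were the same in 4 genes and opposite in 3, *Maml3*, *Notch2* and *Rfng*. In *Aph1a*, *Maml3*, *Notch2* and *Rbpj* the probes differed by more than the error of the difference. No probe of the 50 was called higher or lower in the main setting.

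The promoters of the Notch pathway genes were read for 2 elements, the RBPJ motif and the E-box through which CLOCK, the factor the study follows, binds DNA. RefSeq (GRCm38.p6) gave promoters from 250 bases before to 50 after the start site for 30 of the 36 genes. The other 6 were not searched, so a gene not named below either held no match or had no promoter to search. The RBPJ motif GTGGGAA, on either strand, was in 6 of the 30 (20%), against 7.245% of all 27025 genes in the table. Those 6 were *Aph1a*, *Hes5*, *Hes7*, *Hey2*, *Lfng* and *Psen2*. Its core TGGGAA, which the longer motif contains, was in 11 (36.7%) against 28.3%. The E-box CACGTG, which reads the same on both strands, was in 4 (13.3%) against 8.09%, *Adam10*, *Lfng*, *Nrarp* and *Psen2*. *Lfng* and *Psen2* held both elements, at log2 ratios of 0.99 and 0.07. The other measured genes with either lay between -0.23 for *Hes7* and 0.02 for *Nrarp*. The windows of *Lfng*, *Hes5* and *Hes7* are shown because they hold the motif in front of a HES gene or the gene with the highest ratio among the 6, with the motif or its reverse complement in capitals.
*Lfng*, chr5:140607220-140607250, plus strand: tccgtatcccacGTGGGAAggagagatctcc
*Hes5*, chr4:154960828-154960858, plus strand: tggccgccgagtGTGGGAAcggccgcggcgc
*Hes7*, chr11:69120261-69120291, plus strand: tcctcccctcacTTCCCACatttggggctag
In *Lfng* the motif began at position -109 from the start site and shared its first bases with an E-box that began at -112. In *Hes5* the match shown began at -83, and a second match, the reverse complement at -226, is not shown. A match is a description of these letters and not a site where a factor was measured.

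Further genes of the pathway were taken from lists of their roles. Of 21 further genes for ligand processing and trafficking, 18 were measured, none was higher or lower, and the median log2 ratio was 0.02. Their values ran from -0.23 for *Mib1* to 0.47 for *Neurl1a*, both of them ubiquitin ligase genes. A second measured probe of *Aph1b*, in the end region of the array, passed the upper limits at a log2 ratio of 1.14, while the one that stands for the gene gave -0.17. All 20 corepressor and coactivator genes were measured, and 1 was lower. That gene was *Crebbp*, an acetyltransferase that works with the nuclear complex, at 6875 in ALDH-negative cells against 4950, a log2 ratio of -0.47 ± 0.20, while its other measured probe gave -0.10. A further measured probe of *Tle2*, in the end region of the array, passed the upper limits at 0.68, while the one that stands for the gene gave -0.14. *Tle4*, a Groucho corepressor gene measured only on the ALDH-positive array, read 12.8 against 24.4, or at least 1.86-fold higher, and was not called.

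Of 15 reported NOTCH targets outside the HES and HEY families, 13 were measured, 6 above 0 and 7 below. *Ptcra*, a target in developing T cells, read 29.5 and 5.20 and was at least 2.33-fold lower, and its probe lies in the end region of the array. *Myc* read 2659 and 2695 and *Ccnd1*, the gene of cyclin D1, read 21017 and 19091, and neither was called. *Id1* read 2832 in ALDH-negative cells against 2188, a log2 ratio of -0.37 ± 0.20.

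Since Notch signalling is tied to the luminal lineage, luminal and basal genes were read beside it. Of 12 luminal genes 9 were measured, with a median log2 ratio of 0.27, and none was called. Above 0 were 8 of the 9 (88.9%), against 60.6% of all measured genes. *Krt19* had the highest log2 ratio of the luminal genes, at 0.54 ± 0.20. Of 10 basal genes 7 were measured, with *Krt14* higher at 695 against 1366, a log2 ratio of 0.98 ± 0.20, and *Trp63*, whose probe is in the end region of the array, lower at -0.51 ± 0.20. The basal median of 0.01 turned to -0.14 with a 75th percentile shift, so it has no settled sign.

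All 7 mammary epithelial markers were measured on both arrays, with log2 ratios above 0, where 60.6% of all measured genes were above 0. Of them *Cldn7* and *Esrp1* were higher, as were 1.32% of all measured genes. Among leukocyte markers, *Ptprc* and *Adgre1* were not well above background on either array, and *Itgam* was lower at a log2 ratio of -0.94. Beside it, *Cd3e* gave -0.47, *Csf1r* -0.34 and *Cd68* 0.44, none of them called. Of 8 fibroblast and smooth muscle markers 5 were measured, 4 of them below 0, where 60.6% of all measured genes were above 0. Their median was -0.03 and the lowest, *Col1a1*, was at -0.70 ± 0.33, while *Postn*, with its probe in the end region of the array, was higher at 0.96. Both populations were sorted from a cultured line, and which cells gave these marker signals was not tested. Of 8 ALDH genes that ALDEFLUOR may read 6 were measured, none was called, and their log2 ratios ran from -0.05 for *Aldh3a2* to 0.23 for *Aldh5a1*. A further measured probe of *Aldh3a1* passed the upper limits at 0.62, while the one that stands for the gene gave 0.02. Before normalization the ALDH-positive array was the brighter, with a 75th percentile of 389.9 against 278.2 intensity units. The array of ALDH-negative cells had 26985 probes well above background and the other array 27503. Repeated spots of a probe had a median SD of 0.059 and 0.049 (log2) within the arrays. Combined for a log2 ratio this is an SD of 0.077, smaller than the median scanner error of a log2 ratio, 0.21.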

How the data were processed

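The RNA of each sorted 4T1 population was labelled with Cy3 and hybridized to 1 of 2 Agilent SurePrint G3 mouse arrays of a single slide. RNeasy is the RNA kit of the study's methods and ReliaPrep that of the labels. The authors extracted spot intensities with Agilent Feature Extraction (the labels give version 9.5.1.1 and, per the file headers, it was 10.7.1.1), which subtracts the background, and the deposited value table gives their quantile-normalized intensities. A deposited intensity is relative, and the number of arrays limits its precision.

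Here, control spots and population outliers (135 and 116 spots) were left out, log2 processed signals of repeated spots were averaged, signals under 1 were set to 1, and both arrays were quantile-normalized with Python 3.11.15 and numpy 2.4.6. Of several measured probes, a gene was given the value of its brightest by mean log2 signal. The study's text does not define its Z-score, so the form used here is a choice. A fold against a signal below background is a bound, taken against the higher of that signal and the lowest signal well above background (13.1 and 12.7). For *Mfng* that signal was the higher, so its fold is the measured one. Genes were named by the array files and, for 27235 probes, by RefSeq accession. Normexp used limma 3.58.1 in R 4.3.3 with an offset of 50. The selection was tested on simulated data. With 1 array per population there was no test, p-value or replicate spread.

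The members and lists were chosen with earlier results of these data known. All 36 members are accounted for, and from each further list the called genes are named, with some of those farthest from 0, up to 4 in all. *Myc*, *Ccnd1*, the marker genes not well above background and the further probes that passed the limits are named outside that rule, chosen after their values were seen, and the E-box was searched after the RBPJ motif had been found in *Lfng*. Figures were drawn with matplotlib 3.10.9. One marker gene is not reported here.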

Additional observations from a re-analysis of the deposited data

How the results depend on the processing

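No paired analysis was possible because each population had a single array. The counts of Notch pathway genes called higher and lower, 0 and 0, and the median log2 ratio of the 31 were recomputed under each alternative. The median stayed between 0.06 and 0.08, and 0 were lower throughout. The count of higher genes was 2 with only probes well above background on both arrays, 1 without the last eighth of rows or columns and 1 with the Z-score over all probes, where 141 of 13184, 130 of 11415 and 210 of 13989 genes over the array were higher. Over the array, 184 genes were higher and 284 lower, which became 100 higher with normexp, 91 higher without background correction and 184 lower with the Z-score over all probes. The median of the receptors was 0.19 and that of the nuclear complex 0.065 with the median over a gene's probes. With a 75th percentile shift, the median was 0.11 for the Fringe genes, 0.21 for the Deltex genes, 0.080 for the NOTCH targets outside HES and HEY and -0.14 for the basal genes. The Fringe median was 0.51 with only probes well above background on both arrays, which leaves 2 genes. The luminal median was 0.18 with normexp and 0.18 without background correction. Without the last eighth, the median was 0.13 for *Numb*, *Numbl* and *Nrarp*, of which 2 remain, and 0.11 for the basal genes. The cause of the other changes was not tested. Medians of small groups near 0 changed sign with the setting. *Notch3*, *Notch4* and *Mfng* were dim on both arrays, and *Hes5*, *Hey1*, *Hey2*, *Heyl* and *Dtx1* gave no fold.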
